A study of Arabidopsis thaliana with 24 samples.

Results

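Roots of Arabidopsis thaliana seedlings held for 3 h in polyethylene glycol (PEG) were compared with roots held for 2 h in the same solution. The libraries were chosen by their labels: 3 root libraries of PEG 3 h and 3 of PEG 2 h, 6 of the 24 libraries in the series. Seedlings were wild type Columbia-0, 7 days old, grown on sucrose-containing medium, and each biological replicate pooled 30 to 50 of them. Both groups stood in 30% (w/v) PEG of average molecular weight 8000 in water, at -2.0 MPa, and root and shoot were parted only after the treatment. Transcripts were counted near their 3′ ends with MARS-seq. The other root groups, water for 1 h and PEG for 1 h with 3 libraries each, entered the fit for its estimate of the spread, and their levels are given for context. Water was sampled at 1 h only, so a longer time in PEG, a longer time in solution and a later time of day cannot be told apart. PEG with histidine and PEG with SHAM, both in the series title, were not analysed here.

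PEG molecules too large to enter the wall draw water out of cells, and roots answer first with fast stress transcripts and then with abscisic acid (ABA) signalling and altered growth. Cell growth depends on wall proteins such as expansins and xyloglucan endotransglucosylases, which loosen or rebuild the wall, and on aquaporins, which let water cross membranes. In the endodermis, the innermost cortical layer, a ring of lignin called the Casparian strip seals the wall between cells, built where CASP proteins mark the membrane and peroxidases, laccases and dirigent proteins shape the lignin.

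Total counts were 5080656, 3523295 and 2821855 in PEG 2 h replicates 1, 2 and 3, and 4492121, 5495746 and 4940701 in PEG 3 h replicates 1, 2 and 3. A count of 0 allowed a level of up to 0.546 to 1.06 CPM (counts scaled to a common library total) in these 6 libraries, by 3 counts of the total, for counting error only. All 14 root cell type markers tested were higher in roots than in shoots and all 21 nuclear photosynthesis genes were lower, at the mean of PEG 2 h and 3 h. No marker of either list stood at 0 in all 6 libraries. Photosynthesis genes summed to between 924 and 1729 CPM at 2 h and between 917 and 1534 CPM at 3 h, which overlap.

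Of 10941 genes tested, 84 (0.768%) differed between 3 h and 2 h at an adjusted p under 0.05 by the quasi-likelihood F test of edgeR, with p adjusted by Benjamini and Hochberg's method. At 3 h 16 genes (0.146%) rose and 68 (0.622%) fell. Median log2 fold changes were 0.72 among the risers and -0.79 among the fallers, and 4 risers and 19 fallers moved by more than 1 on the log2 scale. The 3 h libraries lay wholly outside the range of the 2 h libraries for all 84, a separation that 773 (7.07%) of the genes tested showed upward and 1198 (10.9%) downward. Separation was also a condition for naming the largest rises and falls, so below it is a description of those genes and no further support. The median log2 fold change over all genes tested was -0.002, with 5435 genes above 0 and 5506 (50.3%) below. In the authors' deposited table, 38 genes had an adjusted p under 0.05 for these groups, 14 higher and 24 lower at 3 h, and 28 of the 38 were called here in the same direction.

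The calls depended on single libraries. Without PEG 2 h replicate 2 the count of called genes was 19, without PEG 2 h replicate 3 it was 34, without PEG 3 h replicate 2 it was 31 and without PEG 3 h replicate 3 it was 53, whereas it was 155 without PEG 3 h replicate 1 and 81 without PEG 2 h replicate 1. Every one of the 84 kept its direction in these 6 fits, and 18 kept their call in all 6. When all 24 libraries were scaled together, the root genes as a whole shifted by 0.1 on the log2 scale and 21 genes rose against 16 that fell, whereas the same fit scaled within each tissue, added after seeing the data, gave 11 rises and 25 falls. In total, 11 of the 84 genes were called under each of 15 alternatives: the risers AT2G01008, AT3G06325 and WAG2, and the fallers LAC3, EXLA3, PHI-1, AT1G23720, AT3G24020, AT5G05190, AT1G78260 and AT5G18470.

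**Figure D1:**
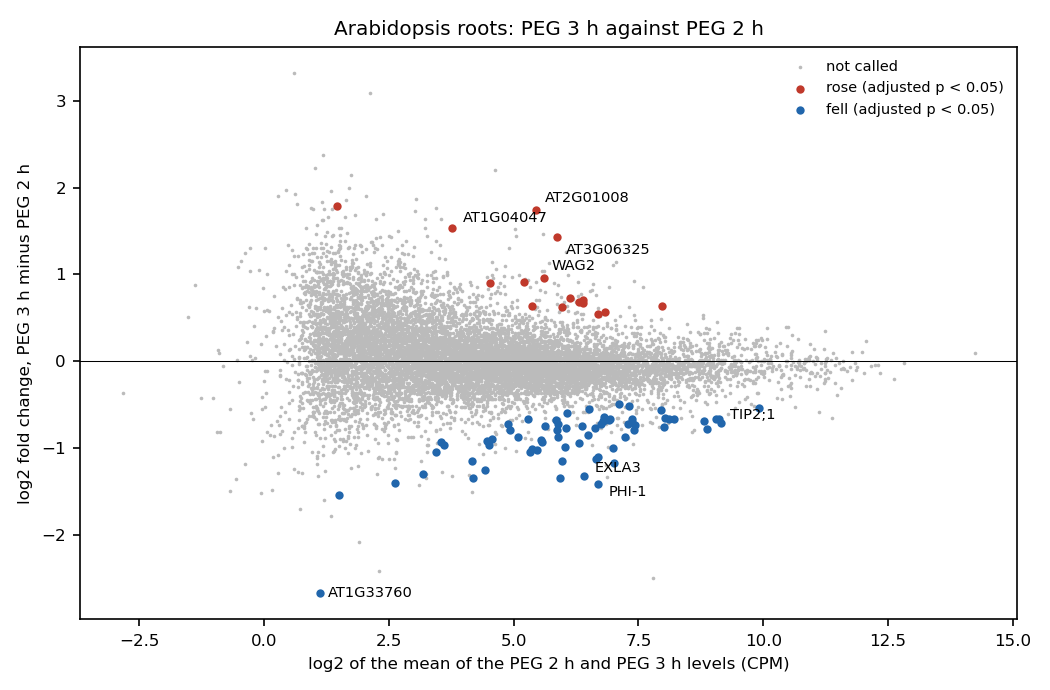
Log2 fold change of PEG 3 h minus PEG 2 h in roots (vertical axis) against the log2 of the mean level of the 2 groups in CPM (horizontal axis), with 1 point for each of 10941 genes. The 16 red points rose and the 68 blue points fell at an adjusted p under 0.05, from -0.49 for the smallest fall to -1.41 for PHI-1 and -2.67 for AT1G33760. AT1G33760 averaged 3.73 CPM at 2 h and 0.588 CPM at 3 h, the latter near the level that a count of 0 allowed. Its call was lost in 5 of the 6 fits that left out 1 library.

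Transcripts of the Casparian strip fell together. CASP1, a membrane protein that marks the site of the strip, measured 218, 226 and 200 CPM in PEG 2 h replicates 1, 2 and 3 and 133, 130 and 109 CPM in PEG 3 h replicates 1, 2 and 3. PER64, a peroxidase that acts in the lignification of the strip, measured 103, 126 and 120 CPM at 2 h and 64.6, 63.8 and 64.8 CPM at 3 h. For both genes every 3 h library was lower than every 2 h library, and PER64 was nearly equal in all 3 replicates of 3 h. Log2 fold changes were -0.79 (SE 0.12, adjusted p = 0.0026) for CASP1 and -0.85 (SE 0.11, adjusted p = 0.0014) for PER64, by edgeR's quasi-likelihood test. CASP2 and ESB1, the latter a dirigent protein needed for an intact strip, fell by 0.77 and by 0.68 on the log2 scale (adjusted p = 0.014 for each).

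Among the 20 Casparian strip and suberin genes in the table, 16 were tested, 5 fell and none rose, against 0.622% and 0.146% of all genes tested. The list's median log2 fold change was -0.13, against -0.002 over all genes tested. Split after the values were seen, 5 of 6 strip genes fell, with a median of -0.78, and none of 10 genes of suberin, the waxy polymer that endodermal cells lay down later, was called, with a median of -0.04. The remaining strip gene was MYB36, the factor that switches on strip genes, which averaged 2.12 CPM at 2 h and 2.82 CPM at 3 h, a log2 fold change of 0.30 (adjusted p = 0.84). CYP86A1, a suberin hydroxylase, averaged 131 and 113 CPM (adjusted p = 0.47). Endodermal identity genes were not called. SCR, a factor of the endodermis and quiescent centre, had an adjusted p of 0.66, and SHR, its upstream partner, averaged 67.9 and 71 CPM (adjusted p = 0.86). In bulk roots, fewer cells of a type and less RNA per cell cannot be told apart. CASP2 missed the threshold in 3 of the 6 fits that left out 1 library (adjusted p up to 0.18) and ESB1 in 4 (up to 0.15), and the list's median was 0.02 without PEG 2 h replicate 1. PER64, CASP2 and ESB1 lost their call in both fits of all 24 libraries, and CASP1 lost it where these were scaled together.

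Other genes of lignin chemistry lay among the fallers. LAC3, a laccase, one of the copper oxidases that can polymerise lignin units, measured 54, 56.9 and 54.6 CPM at 2 h and 28.5, 27.4 and 26.2 CPM at 3 h. AT3G24020, a dirigent-like protein, measured 54.5, 56.1 and 52.1 CPM at 2 h and 27.8, 31.6 and 19.9 CPM at 3 h. AT2G39430, also dirigent-like, measured 83.2, 116 and 115 CPM at 2 h and 53.7, 51.4 and 57.5 CPM at 3 h. Replicates of LAC3 hardly differed within a time, and no 3 h library of the 3 genes reached any 2 h library. Log2 fold changes were -1.01 (SE 0.12, adjusted p = 0.0011), -1.04 (SE 0.15, adjusted p = 0.0026) and -0.94 (SE 0.16, adjusted p = 0.0066), and the last had an adjusted p of 0.094 without PEG 2 h replicate 2. Counted by RefSeq product name after the values were seen, 4 of 13 dirigent-like genes tested fell, as did 3 of 44 peroxidases and 1 of 9 laccases. Of all genes tested, 0.622% fell. No member of these families rose, and with 0.146% of all genes rising that says little about them. ESB1, PER64 and LAC3, described above, are among the members counted. The other dirigent-like gene, AT3G55230, averaged 203 ± 9.67 CPM (SD, n = 3) at 2 h and 127 ± 8.71 CPM at 3 h, and lost its call without replicate 2 of either time (adjusted p up to 0.076). The peroxidase gene AT3G01190 averaged 194 ± 12.1 and 118 ± 7.55 CPM (SD, n = 3). It kept its call in each fit that left out 1 library, and both genes lost it in the 2 fits of all 24 libraries.

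**Figure D2:**
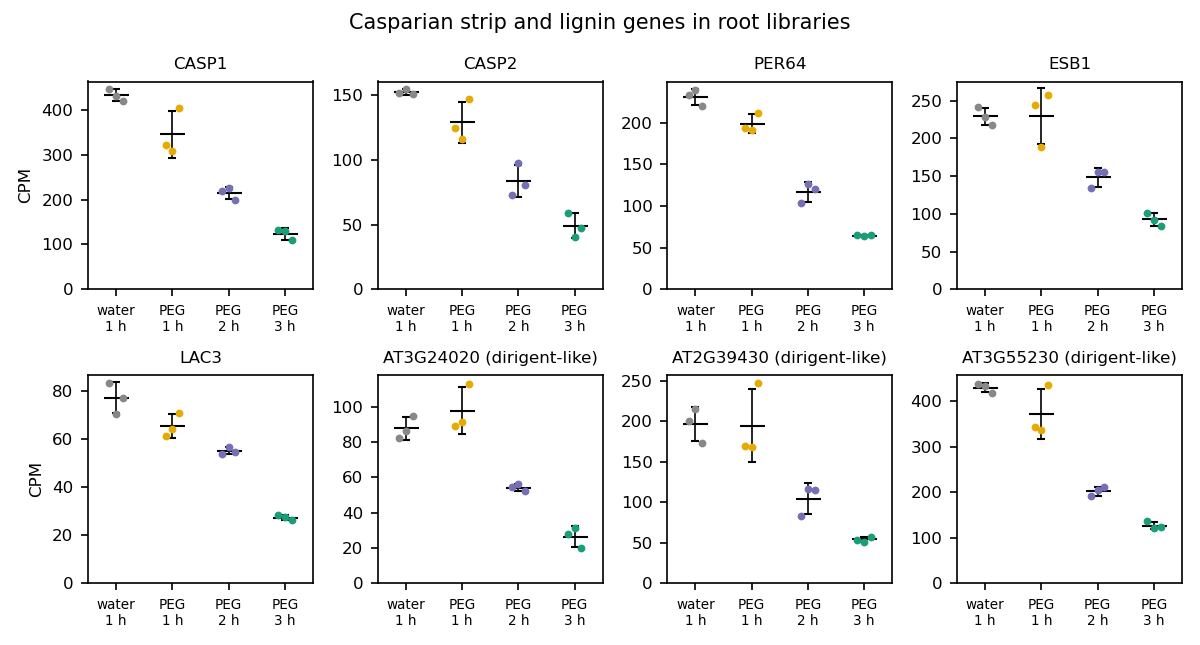
Level in CPM (vertical axes, from 0) in each root library of water 1 h, PEG 1 h, PEG 2 h and PEG 3 h (horizontal axes) for 8 genes, with points for libraries and bars for the mean and SD of 3. All 8 genes were lower in each 3 h library than in any 2 h library, for example CASP1 at 109 to 133 CPM against 200 to 226 CPM.

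CASP1 and LAC3 averaged lower at PEG 1 h than in water, and AT3G24020 did not. CASP1 averaged 432 ± 13.3 CPM in water, 345 ± 51.5 CPM at PEG 1 h, 215 ± 13.4 CPM at 2 h and 124 ± 12.9 CPM at 3 h (SD, n = 3 each). LAC3 averaged 77.1, 65.4, 55.1 and 27.4 CPM in the same order. AT3G24020 averaged 87.7 CPM in water and 97.6 CPM at PEG 1 h before 54.2 and 26.4 CPM. No trend over the 4 groups was tested, so the levels are a description.

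Genes of wall loosening and growth moved in both directions. PHI-1, of the EXORDIUM family of secreted proteins linked to cell expansion, measured 139, 171 and 140 CPM at 2 h and 71.8, 52.4 and 46.1 CPM at 3 h. EXO, the founding member, measured 514, 674 and 589 CPM at 2 h and 426, 306 and 302 CPM at 3 h. The 3 h libraries were lower throughout, with EXO of 3 h replicate 1 nearest to the 2 h range. PHI-1 had a log2 fold change of -1.41 (SE 0.20, adjusted p = 0.0042) and EXO of -0.78 (SE 0.16, adjusted p = 0.022). EXL5 fell by 0.69 on the log2 scale (adjusted p = 0.040). Of the 6 EXORDIUM family genes tested, 3 fell and none rose, against 0.622% and 0.146% of all genes tested. The list's median was -0.48. EXO and EXL5 each missed the threshold in 4 of the 6 fits that left out 1 library, with adjusted p up to 0.24 and 0.40.

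EXLA3, an expansin-like gene, measured 114, 136 and 112 CPM at 2 h and 57.8, 40.9 and 46.8 CPM at 3 h. XTH23, which encodes a xyloglucan endotransglucosylase, measured 169, 214 and 196 CPM at 2 h and 115, 93.9 and 109 CPM at 3 h. AT1G23720, an extensin-like wall protein rich in proline, measured 113, 161 and 142 CPM at 2 h and 73.1, 68 and 48.1 CPM at 3 h. In each of the 3 genes the times were separate. EXLA3 and AT1G23720 kept their call under each alternative, and XTH23 lost it in 4 of the 6 fits that left out 1 library (adjusted p up to 0.16) and in both fits of all 24 libraries. Log2 fold changes were -1.32 (SE 0.17, adjusted p = 0.0014), -0.87 (SE 0.17, adjusted p = 0.020) and -1.13 (SE 0.16, adjusted p = 0.0018). PHI-1, EXO, EXLA3 and XTH23 had been higher at PEG 1 h than in water, with PHI-1 at 54.3 ± 18.7 CPM in water and 282 ± 11.3 CPM at 1 h, while AT1G23720 had stood at 1104 ± 108 CPM in water and 268 ± 26.8 CPM at 1 h (SD, n = 3 each).

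EXPA1, an alpha-expansin that loosens walls, measured 28.9, 21.7 and 25.9 CPM at 2 h and 37, 58.5 and 48.9 CPM at 3 h. XTH14, another xyloglucan endotransglucosylase, measured 36.6, 26.8 and 32.5 CPM at 2 h and 51.5, 56 and 42.7 CPM at 3 h. AGP3, an arabinogalactan protein of the cell surface, measured 57.3, 47.3 and 53.5 CPM at 2 h and 104, 91.7 and 67.4 CPM at 3 h. All 3 genes were higher in every 3 h library, which was a condition for naming them among the largest rises. Log2 fold changes were 0.91 (SE 0.21, adjusted p = 0.044), 0.64 (SE 0.14, adjusted p = 0.033) and 0.73 (SE 0.15, adjusted p = 0.028). In water XTH14 had averaged 297 ± 19.9 CPM and AGP3 387 ± 44.6 CPM, well above their 3 h levels, and EXPA1 27.5 ± 8.34 CPM (SD, n = 3). XTH14 lies next to XTH23 in the RefSeq annotation, the 2 do not overlap there, and they moved in opposite directions. EXPA1 was lost in 5 and XTH14 and AGP3 in 4 of the 6 fits that left out 1 library, with adjusted p up to 0.31, 0.25 and 0.23. Another arabinogalactan protein gene, AGP7, fell, from 651 ± 91.7 CPM at 2 h to 409 ± 62.3 CPM at 3 h (SD, n = 3). The log2 fold change of AGP7 was -0.67 (edgeR adjusted p = 0.021), and its call was lost in 4 of those fits.

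Of the 19 expansin and xyloglucan endotransglucosylase genes tested, 2 rose (EXPA1 and XTH14) and 1 fell (XTH23), against 0.146% and 0.622% of all genes tested. The list's median was 0.15, and EXLA3, the expansin-like gene that fell, is not in this list. None of the 16 listed root hair genes and extensins tested was called by edgeR, with a median of 0.25. At an unadjusted p under 0.05 stood 3 upward and 1 downward, against 5.08% and 7.39% of all genes tested. The extensin-like gene AT1G23720, which fell, is not in that list. Without PEG 2 h replicate 1 the medians of these lists were 0.27 and 0.63, and without PEG 3 h replicate 3 that of the former was 0.08.

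**Figure D3:**
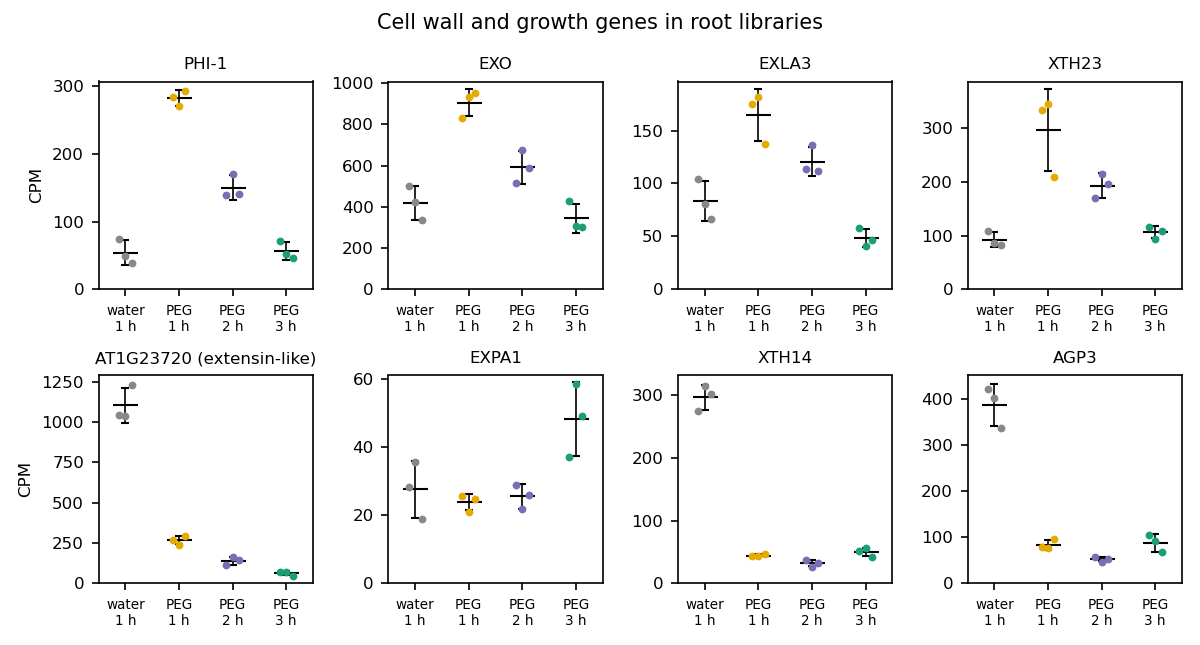
Level in CPM (vertical axes, from 0) in each root library of water 1 h, PEG 1 h, PEG 2 h and PEG 3 h (horizontal axes) for 8 wall and growth genes, with points for libraries and bars for the mean and SD of 3. From 2 h to 3 h the first 5 fell, PHI-1 from 139 to 171 CPM down to 46.1 to 71.8 CPM, and EXPA1, XTH14 and AGP3 rose.

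Among water channels, TIP2;1 and TIP4;1 of the vacuole membrane fell. TIP2;1 measured 611, 748 and 775 CPM at 2 h and 479, 419 and 410 CPM at 3 h, and TIP4;1 measured 95.8, 111 and 104 CPM at 2 h and 70, 57 and 59.2 CPM at 3 h. Neither overlapped between times, with log2 fold changes of -0.71 (SE 0.13, adjusted p = 0.015) and -0.74 (SE 0.14, adjusted p = 0.012). Of 19 aquaporin genes tested, these 2 fell and none rose, against 0.622% and 0.146% of all genes tested. The list's median was -0.13, and 16 of the 19 had a log2 fold change below 0, against 50.3% of all genes. That median was -0.22 without PEG 3 h replicate 2 and -0.03 with all 24 libraries in one fit. TIP1;1, also of the vacuole membrane, was not called, with a log2 fold change of -0.32 (adjusted p = 0.30). PIP1;1, a plasma membrane channel, averaged 687 CPM at 2 h and 521 CPM at 3 h and was not called (adjusted p = 0.14). TIP2;1 missed the threshold in 4 and TIP4;1 in 3 of the 6 fits that left out 1 library, with adjusted p up to 0.16 and 0.15.

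Of the 3 largest rises among genes whose larger group mean reached 10 CPM, 2 were in poorly described transcripts beside ribosomal RNA genes. AT2G01008, annotated as a maternal effect embryo arrest protein, measured 17.7, 21.1 and 22 CPM at 2 h and 53.5, 70.9 and 77.4 CPM at 3 h. AT3G06325, a long noncoding RNA, measured 25.7, 33.8 and 36.7 CPM at 2 h and 68.5, 85.1 and 102 CPM at 3 h. In both, each 3 h library was far above each 2 h library, with log2 fold changes of 1.74 (SE 0.23, adjusted p = 0.0014) and 1.43 (SE 0.20, adjusted p = 0.0018). In water they had averaged 0.76 ± 0.297 and 1.58 ± 0.496 CPM, and at PEG 1 h 9.03 ± 6.25 and 13.4 ± 5.66 CPM (SD, n = 3). Both calls held under each of the 15 alternatives. In the RefSeq annotation a single microRNA gene lies between AT2G01008 and the ribosomal RNA gene AT2G01010, and between AT3G06325 and the ribosomal RNA gene AT3G41768.

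The ribosomal RNA genes themselves were higher at 3 h without being called. AT3G41768 measured 49.2, 62.3 and 46.5 CPM at 2 h and 85.5, 76.9 and 84.5 CPM at 3 h, a log2 fold change of 0.64 (SE 0.16, adjusted p = 0.081). AT2G01020 had a log2 fold change of 0.68 (adjusted p = 0.20) and AT2G01010 of 0.48 (adjusted p = 0.54). Together the ribosomal RNA genes took 0.0121%, 0.0171% and 0.0144% of counts in the 2 h libraries and 0.0231%, 0.0219% and 0.0246% in the 3 h libraries, which do not overlap. These genes are repeated in the genome, so reads could be split among copies, and the part of ribosomal RNA reads in the 2 called transcripts was not tested.

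AT1G04047, a long noncoding RNA that overlaps AT1G01725 on the other strand, measured 6.41, 5.07 and 9.79 CPM at 2 h and 17, 14.9 and 28.5 CPM at 3 h. The 3 h libraries were all higher, though 3 h replicate 3 was well above the other two, and the log2 fold change was 1.53 (SE 0.30, adjusted p = 0.020). The call was lost in 3 of the 6 fits that left out 1 library, that one included, at adjusted p up to 0.18. The sources used here do not give the strand setting of the counting, so reads of the 2 overlapping genes cannot be told apart. The same holds for AT3G06325, which overlaps AT3G41762 on the other strand.

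**Figure D4:**
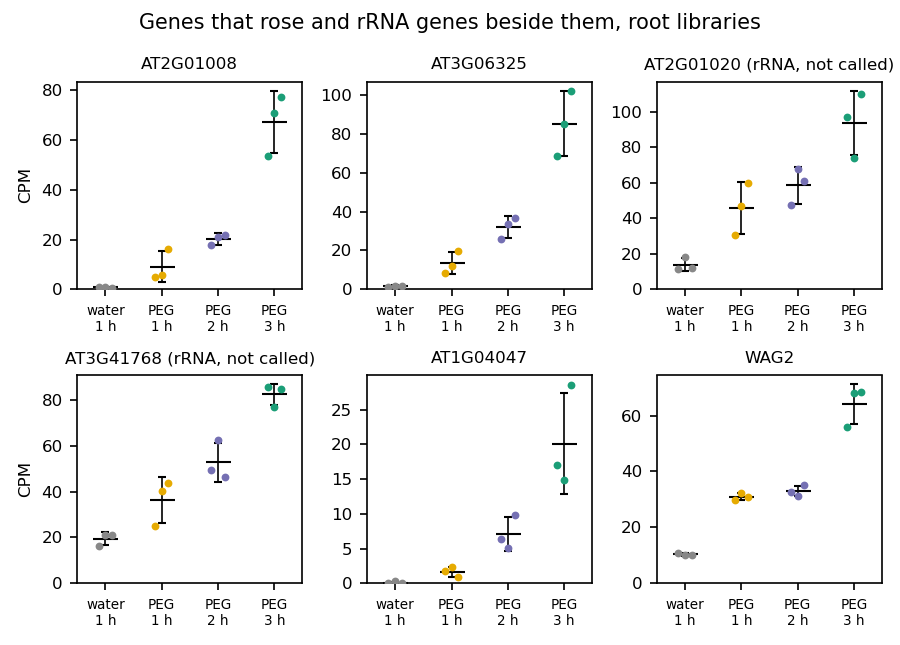
Level in CPM (vertical axes, from 0) in each root library of water 1 h, PEG 1 h, PEG 2 h and PEG 3 h (horizontal axes) for 4 genes that rose and 2 ribosomal RNA genes that were not called, with points for libraries and bars for the mean and SD of 3. AT2G01008 went from 17.7 to 22 CPM at 2 h up to 53.5 to 77.4 CPM at 3 h.

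Among regulators, WAG2 rose. It encodes a kinase that phosphorylates PIN auxin exporters, and it measured 32.8, 31.3 and 35 CPM at 2 h and 55.9, 68.1 and 68.4 CPM at 3 h. Its log2 fold change was 0.96 (SE 0.13, adjusted p = 0.0014), and the call held under each alternative. Its level at PEG 1 h, 31 ± 1.33 CPM, was close to that at 2 h, 33 ± 1.86 CPM, and above that in water, 10.4 ± 0.561 CPM (SD, n = 3). RHA2A, a RING ubiquitin ligase that promotes ABA signalling, measured 61.3, 68.8 and 65.1 CPM at 2 h and 91.8, 103 and 114 CPM at 3 h, a log2 fold change of 0.67 (SE 0.12, adjusted p = 0.012). It was lost in 5 of the 6 fits that left out 1 library, at adjusted p of no more than 0.061.

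Smaller rises included PRIN2, part of the plastid transcription machinery, at 61.1 ± 6.96 CPM at 2 h and 97.4 ± 5.51 CPM at 3 h (adjusted p = 0.023). AT3G15450, whose product is described as aluminum induced, averaged 16.1 ± 2.55 and 29.9 ± 4.52 CPM (adjusted p = 0.016). AT5G17760, a nucleoside triphosphatase, averaged 195 ± 31.1 and 304 ± 21.5 CPM (adjusted p = 0.030). These calls were each lost in 3 or 4 of the 6 fits that left out 1 library, with adjusted p up to 0.15, 0.15 and 0.24.

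DDF2, a transcription factor of the DREB family that binds drought and cold response elements, measured 86.8, 108 and 66.1 CPM at 2 h and 42.6, 29.4 and 31.7 CPM at 3 h. No 3 h library reached a 2 h library, and the log2 fold change was -1.34 (SE 0.22, adjusted p = 0.011). Its closest relative DDF1 averaged 167 CPM at 2 h and 66.7 CPM at 3 h with wide spread at 3 h, where the libraries measured 112, 60.9 and 27.4 CPM, and was not called (adjusted p = 0.33). Of the 14 DREB and CBF factors tested, DDF2 fell and none rose, against 0.622% and 0.146% of all genes tested. The list's median was -0.09, which was 0.02 when all 24 libraries were scaled together and 0.03 without PEG 3 h replicate 3. DREB2A, which drives drought and heat genes, measured 50.7, 43.1 and 42.7 CPM at 2 h and 63.9, 112 and 94.8 CPM at 3 h and was not called (log2 fold change 0.99, SE 0.40, adjusted p = 0.36). DDF2 missed the threshold in 3 of the 6 fits that left out 1 library (adjusted p up to 0.087).

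AT3G28580, an ATPase gene used as a reporter of singlet oxygen, measured 21.3, 25.6 and 27.6 CPM at 2 h and 10.9, 12.9 and 9.55 CPM at 3 h. All 3 h libraries were lower, with a log2 fold change of -1.15 (SE 0.22, adjusted p = 0.017). Of the 10 singlet oxygen response genes tested it alone fell and none rose, against 0.622% and 0.146% of all genes tested. The list's median was -0.58, with 8 below 0, against 50.3% of all genes. Over the alternatives that median ran from -0.77, without PEG 3 h replicate 1, to -0.35, without PEG 3 h replicate 3. BAP1, another such reporter, measured 236, 236 and 181 CPM at 2 h and 199, 141 and 58.3 CPM at 3 h, which overlap (adjusted p = 0.46). WRKY33 and SZF1, early stress regulators, averaged 127 and 183 CPM at 2 h and 88.5 and 113 CPM at 3 h (adjusted p = 0.14 for each). AT3G28580 was lost in 3 of the 6 fits that left out 1 library (adjusted p up to 0.15).

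Further named fallers had no common list. AT5G05190, of unknown function, averaged 26 ± 3.47 CPM at 2 h and 10.3 ± 3.07 CPM at 3 h, a log2 fold change of -1.34 (adjusted p = 0.0026). AT1G78260, an RNA-binding protein gene, averaged 30.2 ± 1.46 and 12.6 ± 2.13 CPM (log2 fold change -1.25, adjusted p = 0.0031). Both kept their call under every one of the 15 alternatives. AT5G28610 and the glycine-rich protein gene AT5G28630 fell by 1.17 and by 1.1 on the log2 scale, with adjusted p of 0.014 and 0.020, and each was lost in 4 of the 6 fits that left out 1 library (adjusted p up to 0.094 and 0.15). AT2G35290, uncharacterized, averaged 86.2 ± 4.39 and 38.9 ± 9.72 CPM (adjusted p = 0.011). The call did not hold without replicate 2 of PEG 2 h (adjusted p = 0.094), and the gene neighbours LEA18, whose log2 fold change was -0.96 (adjusted p = 0.046). The thaumatin-like gene AT4G36000 and the actin-binding formin gene AT5G07770 fell by 1.30 and by 1.05, with adjusted p of 0.040 and 0.014, and were lost in 4 and 2 of those fits (adjusted p up to 0.40 and 0.086). AT4G12510 and AT4G12520, neighbouring lipid-transfer genes between which reads could be split, fell by 0.99 and by 1.0 (adjusted p = 0.0068 and 0.0022), and the former was lost in 2 of those fits (adjusted p up to 0.094).

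Syntaxins of the plasma membrane, which fuse secretory vesicles, were also lower. SYP122 averaged 337 ± 25.3 CPM at 2 h and 213 ± 30.7 CPM at 3 h (adjusted p = 0.014) and SYP121 365 ± 23.4 and 231 ± 45.4 CPM (adjusted p = 0.035). CYP83B1, an enzyme of indole glucosinolate synthesis, averaged 556 ± 45.6 and 345 ± 48.3 CPM (adjusted p = 0.011). These were lost in 3, 5 and 3 of the 6 fits that left out 1 library, with adjusted p up to 0.11, 0.29 and 0.15.

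ABA genes showed few calls between the 2 times. NCED3, the rate-limiting enzyme of ABA synthesis under drought, measured 20.8, 10.4 and 20.3 CPM at 2 h and 28.9, 41.9 and 18 CPM at 3 h, which overlap (log2 fold change 0.78, SE 0.28, adjusted p = 0.26). HAI3, a clade A PP2C phosphatase that dampens ABA signalling, measured 2.64, 2.54 and 2.45 CPM at 2 h and 7.39, 7.61 and 5.62 CPM at 3 h. It stood just over the threshold, with a log2 fold change of 1.42 (SE 0.34, adjusted p = 0.058). HAI2 averaged 19.3 and 31.2 CPM (adjusted p = 0.35). None of the 8 phosphatase genes tested was called, with a median of 0.31, all 8 above 0 and 3 with an unadjusted p under 0.05, against 5.08% of all genes in that direction. The median was 0.19 without PEG 3 h replicate 2 and 0.56 without PEG 2 h replicate 1. RD29A, a drought target gene, averaged 1060 and 1113 CPM (adjusted p = 0.97). P5CS1 of proline synthesis averaged 91.8 and 104 CPM (adjusted p = 0.75), PRODH1 of proline breakdown 899 and 1085 CPM (adjusted p = 0.70) and MAPKKK18, an ABA-induced kinase, 61.5 and 83.9 CPM (adjusted p = 0.54). RD29B did not pass the filter on low counts. Of 17 LEA and drought target genes tested, LEA18 fell and none rose, against 0.622% and 0.146% of all genes tested. The list's median was 0.07, which lay between -0.03 without PEG 2 h replicate 3 and 0.2 without PEG 2 h replicate 1. LEA18 was lost in 5 of the 6 fits that left out 1 library (adjusted p up to 0.25).

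In 34 of the 42 lists no member was called by edgeR. Over the 429 genes of those lists tested, 71 (16.6%) had an unadjusted p under 0.05, against 12.5% of all genes tested, and the DESeq2 Wald test called 13, 4 higher and 9 lower. Hypoxia and fermentation genes had a median of 0.56 over 17 tested, 14 of them above 0 and 7 with an unadjusted p under 0.05 upward, against 5.08% of all genes. That median was 0.37 without PEG 3 h replicate 1 and 0.82 without PEG 2 h replicate 3. Among them ADH1, the alcohol dehydrogenase of fermentation, measured 115, 93.8 and 147 CPM at 2 h and 174, 269 and 226 CPM at 3 h, separate but not called by edgeR (log2 fold change 0.92, SE 0.26, adjusted p = 0.17). HRE2, a hypoxia response factor, averaged 4.6 and 9.57 CPM (adjusted p = 0.13).

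Class II trehalose phosphate synthases and low-sugar genes had a median of 0.61 over 11 tested, all 11 above 0, against 5435 of all 10941 genes tested. That median was 0.2 without PEG 3 h replicate 3 and 0.93 without PEG 3 h replicate 1. BZIP1, a factor of the low-energy response, averaged 2.32 CPM at 2 h and 7.19 CPM at 3 h (adjusted p = 0.18), and its partner BZIP53 4.73 and 11 CPM (adjusted p = 0.16). Jasmonate genes had a median of -0.31 over 23 tested, 17 of them below 0, against 50.3% of all genes. Of the 23, 10 had an unadjusted p under 0.05 downward and 1 upward by edgeR, against 7.39% and 5.08% of all genes. OPR3, a reductase of jasmonate synthesis, averaged 75.6 and 52.7 CPM (adjusted p = 0.081). Calcium and touch genes had a median of -0.35 over 8 tested, with TCH3, a calmodulin-like protein, at 1004 and 716 CPM (adjusted p = 0.079). The median of the calcium and touch genes was -0.14 without PEG 3 h replicate 3. Nutrient uptake genes had a median of -0.19 over 18 tested, with NIR1, the nitrite reductase, at 307 and 220 CPM (adjusted p = 0.052), and that median was -0.09 with all 24 libraries in one fit.

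Of 115 transcripts of the organelle genomes, 33 were tested, and all 33 were higher at 3 h, against 5435 of all 10941 genes tested. The list's median was 0.55, and 1 member was called as a rise, against 0.146% of all genes. That transcript, ATMG00690 of the mitochondrion, measured 58.1, 64.8 and 67.2 CPM at 2 h and 105, 96.4 and 110 CPM at 3 h, a log2 fold change of 0.71 (SE 0.15, adjusted p = 0.023). As a share of all counts, organelle transcripts took 1.99%, 2.1% and 2.47% at 2 h and 2.6%, 2.39% and 2.39% at 3 h, which overlap. Shares were higher in the earlier root groups, at 2.82%, 3.14% and 2.82% in water and 2.65%, 3.12% and 3.97% at PEG 1 h. ATMG00690 was lost in 5 of the 6 fits that left out 1 library (adjusted p up to 0.15). Cytosolic ribosomal protein genes had a median of 0.08 over 24 tested, and cell cycle genes 0.04 over 25. These medians reached 0.18 with all 24 libraries in one fit and 0.15 without PEG 2 h replicate 3, and the latter was -0.06 without PEG 3 h replicate 3.

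The same times in shoots share no library with the root comparison, but root and shoot were parted after the treatment and carry the same replicate letters, so they may come from the same pools of seedlings. In one fit of all 24 libraries, 144 (0.931%) of 15472 genes tested were called between PEG 3 h and 2 h in shoots, 57 higher and 87 lower. The library code digit was the same in all root libraries of these times but differed among the shoot ones. The labels do not give its meaning, and part of the shoot difference cannot be told apart from it. The 84 genes called in roots included 7 of them, 8.33% of the root calls and 4.86% of the shoot calls, all 7 lower in both organs: EXLA3, SYP122, AT2G39430, AT3G07195, AT3G46280, AT1G30757 and AT2G44370. Of the 68 genes that fell in roots, 59 had a shoot log2 fold change below 0, with a median of -0.71, against 47.8% and a median of 0.02 over all genes tested in shoots. Of the 16 that rose in roots, 12 were above 0 in shoots, with a median of 0.33. EXLA3 averaged 14.6 ± 6.22 CPM in shoots at 2 h and 3.53 ± 1.93 CPM at 3 h (SD, n = 3). CASP1 averaged 4.63 and 1.9 CPM in shoots, levels at which its shoot difference of -1.43 was not called (adjusted p = 0.098).

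Each gene was tested for a root change unlike its shoot change, and 0 of 15472 genes (0%) passed with edgeR, with a lowest adjusted p of 0.11 and 1488 genes (9.62%) at an unadjusted p under 0.05. The DESeq2 Wald test called 10 genes for that difference. One of these was PGIP1, an inhibitor of fungal pectin-degrading enzymes, which fell in roots from 294 ± 12.5 to 200 ± 14.9 CPM (adjusted p = 0.015) and averaged 97.7 ± 18.1 and 141 ± 29.8 CPM in shoots (adjusted p = 0.069). Its root minus shoot difference was -1.02 (adjusted p = 0.11 with edgeR, 0.002 with DESeq2), and its root call was lost in 3 of the 6 fits that left out 1 library (adjusted p up to 0.11). Shoot PEG 2 h replicate 2 held 343397 counts only, and without it the lowest adjusted p for the difference was 0.06. Leaving out shoot PEG 2 h replicate 1, root PEG 2 h replicate 3 or root PEG 3 h replicate 1 gave 3, 1 and 7 called genes. No gene is therefore called particular to roots.

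**Figure D5:**
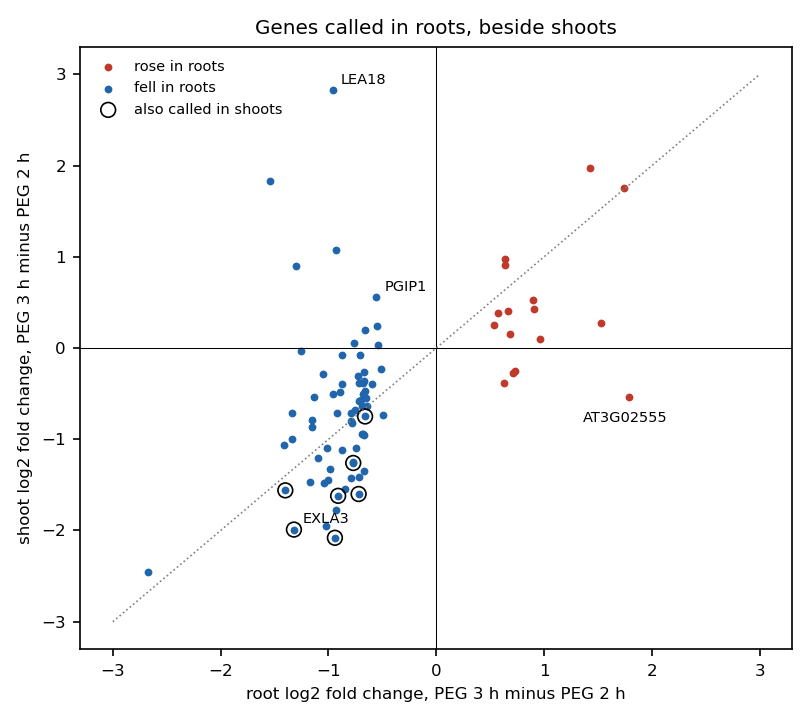
Log2 fold change of PEG 3 h minus PEG 2 h in shoots (vertical axis) against that in roots (horizontal axis) for the 84 genes called in roots, with rings around the 7 also called in shoots and a dotted line where both are equal. Of the 68 blue points that fell in roots, 59 lie below 0 for shoots, and LEA18 and PGIP1 lie above.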

How the data were processed

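MARS-seq libraries were made from roots and shoots, per the labels' protocols. Reads were processed with bcl2fastq, cutadapt, STAR 2.4.2a, HTSeq and DESeq2, per the submitters' processing notes. Molecular identifier collapsing, strand and genome build are not given in the sources used here, so no positions or sequences are printed. The authors deposited raw counts for 18240 genes in 24 libraries, and log2 fold changes and adjusted p-values for each contrast, per the file headers. Their log2 value for these groups is 2 h over 3 h and was turned round here.

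The 12 root libraries were fitted with 4 group means in R 4.3.3 with edgeR 4.0.16 (filterByExpr, TMM, robust quasi-likelihood F test, two-sided, Benjamini-Hochberg over all genes tested, 8 residual degrees of freedom). The joint fit used all 24 libraries (16 residual degrees of freedom). Standard errors are those implied by the F statistic. CPM use TMM-scaled library sizes, of the joint fit for shoots. DESeq2 1.42.0 was an alternative. P-values weigh a difference against the spread between pooled replicates, estimated over all libraries of the fit. The edgeR tests of the root difference and of root minus shoot were run on simulated data, and the shoot difference and the alternatives were not.

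Named genes are the 12 largest rises and 12 largest falls among called genes whose larger group mean reached 10 CPM and whose times do not overlap, up to 3 genes per list with the lowest adjusted p, and 9 fixed stress genes. Genes named outside it, after their values were seen, are CASP2, ESB1, MYB36, CYP86A1, SCR, SHR, LAC3, AGP7, AT1G33760, PGIP1, the syntaxins, CYP83B1, the ribosomal RNA genes and those named only by family, organ or stability. The members and the 41 lists (743 entries) were chosen with earlier results of these data known. A 42nd list holds the organelle transcripts. Names come from the RefSeq table of TAIR10.1, which held 18125 of the 18240 identifiers. Promoter motifs were not analysed here. The values of 1 listed gene are not reported here.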

Additional observations from a re-analysis of the deposited data

How the results depend on the processing

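Against 84 genes called in roots, the DESeq2 Wald test called 173, no filter on low counts 132, the replicate block 135, all 24 libraries in one fit 37, and that fit scaled within each tissue (added after seeing the data) 36. Leaving out 1 library gave 19 to 155. DESeq2 size factors (87), at least 10 CPM in 3 libraries (69), the 6 libraries alone (84) and the library code digit (107) stayed within 1.5 times. The causes were not tested. For root minus shoot, where edgeR called 0, the Wald test called 10, no filter 3, at least 10 CPM in 3 libraries 7, the 12 libraries of PEG 2 h and 3 h alone 3 and the library code digit as a term 159. That digit differs between the shoot groups. Leaving out 1 library gave 0 to 7. Correlations of deviations between same-numbered replicates of 2 h and 3 h were -0.08, -0.08 and 0.01, and no sample correlated best with its own number. These correlations over all genes do not settle whether replicates of a number share an effect on some genes, and the replicate block called 135.

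Of 1734 values for 116 genes under the alternatives, 1289 kept direction and side of the threshold, 406 lost the call, 35 gained it and 4 reversed, all of genes that were not called. PRODH1 was -0.12 without PEG 3 h replicate 3, SHR -0.03 without PEG 2 h replicate 1, and RD29A -0.08 without PEG 2 h replicate 3 and -0.05 without PEG 3 h replicate 2. Over the fits that left out 1 library these log2 fold changes ranged up to 0.46, 0.16 and 0.29. Of 630 list medians, 45 moved by more than the spread between replicates. Depth limits the lowest genes, since a count of 0 allowed up to 1.06 CPM in the shallowest of the 6 libraries. The motif counts planned for promoters were not run.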

Other observations

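AT3G43850, uncharacterized and singled out after its values were seen, varied more between replicates than between times. It measured 3.21, 1125 and 8.74 CPM in PEG 2 h replicates 1, 2 and 3 and 5.22, 189 and 3.56 CPM in PEG 3 h replicates 1, 2 and 3. The other root libraries measured 3.26, 37.9 and 134 CPM in water and 272, 151 and 7.69 CPM at PEG 1 h. The log2 fold change of 3 h minus 2 h was -2.50 (SE 2.17, edgeR adjusted p = 0.69).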
